A study of Caenorhabditis elegans with 6 samples.

Results

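The 10 genes described here encode enzymes that remove superoxide and hydrogen peroxide in the nematode Caenorhabditis elegans: 5 superoxide dismutases (sod-1, sod-2, sod-3, sod-4 and sod-5), 3 catalases (ctl-1, ctl-2 and ctl-3) and 2 peroxiredoxins (prdx-2 and prdx-3). They were taken by gene symbol from the deposited expression table, in which each symbol has 1 probe set, so they make up 10 of its 29317 probe sets. The labels fit the annotation deposited with that table, in which all 5 sod genes carry superoxide dismutase activity, all 3 ctl genes catalase activity and both prdx genes peroxiredoxin activity. Of the probe sets outside the 10 genes, 1 carries any of these terms, that of prdx-6. The annotation links 8 of the 10 genes to adult lifespan, the exceptions being sod-4 and prdx-3.

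Worms of the wild-type strain N2 were kept at 20 °C in 100 µM Ponceau Red, in 100 µM tartrazine or in water for 48 h, starting 16 to 18 h after hatching. Ponceau Red and tartrazine are synthetic azo dyes used to colour food. All 3 groups were labelled young adults, 3 days old, and RNA came from whole animals, so fewer cells of a type and less RNA per cell cannot be told apart. Each group had 2 Affymetrix arrays, named here by the numbers in the column names: Ponceau Red arrays 2 and 3, tartrazine arrays 1 and 2, and water arrays 1 and 2. Values are log2 signals computed by the authors with RMA, a method that corrects background, equalises the arrays and summarises probes, and array medians lay between 2.13 and 2.40 log2.

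The arrays did not all match the labelled stage. The summed linear signal of 7 adult markers, the yolk genes vit-1 to vit-6 and the adult collagen col-19, was 10400 in Ponceau Red array 2 and 29.3 in array 3. It was 5527 and 8424 in the tartrazine arrays, against 35.8 and 34.2 in the water arrays. Markers of oocytes and eggshell summed to 1049 and 23.4 in Ponceau Red, 854 and 949 in tartrazine, and 52 and 23.1 in water. The sum of genes active in larvae at the moult (mlt-10, mlt-11, noah-1 and noah-2) ran the other way. It was 332 and 1303 in Ponceau Red, 177 and 166 in tartrazine, and 1589 and 1656 in water. One of these genes, mlt-10, did not follow that sum and was lowest in Ponceau Red array 3. It read 3.48 and 2.18 log2 in Ponceau Red, 3.25 and 3.24 in tartrazine, and 4.74 and 4.52 in water. By these sums Ponceau Red array 2 stood with the tartrazine arrays and array 3 nearer to the water arrays. Across probe sets array 2 correlated at 0.98 and 0.991 with the tartrazine arrays, and array 3 at 0.915 and 0.931 with the water arrays. The water arrays correlated at 0.987 with each other, so array 3 was less close to them. Ponceau Red values are therefore given by array, and the part that stage plays in the differences described here was not tested.

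Superoxide, formed mainly by electron leak in mitochondria, is converted by superoxide dismutases to oxygen and hydrogen peroxide. Catalases, haem enzymes, split hydrogen peroxide to water and oxygen, and peroxiredoxins reduce it with electrons that come from thioredoxin and NADPH. C. elegans has copper-zinc superoxide dismutases in the cytosol (sod-1 and sod-5) and outside the cell (sod-4), and manganese enzymes in the mitochondrial matrix (sod-2 and sod-3). Several of these genes, sod-3 above all, are known targets of DAF-16, the FOXO transcription factor that reduced insulin signalling activates, and serve as reporters of it.

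The cytosolic dismutases come first. The gene for the main cytosolic enzyme, sod-1, read 7.37 log2 in Ponceau Red array 2 and 7.23 in array 3, 7.59 and 7.41 in tartrazine, and 8.42 and 8.38 in water. All 4 colorant arrays lay below both water arrays, and the Ponceau Red arrays lay close together, whereas for 5 of the 10 genes they were more than 1 log2 apart. In Ponceau Red sod-1 fell by 1.10 ± 0.16 log2 relative to water, or 2.15-fold (limma adjusted p = 0.0464, standard error over 2 arrays a group). It was the only one of the 10 genes to pass in this comparison, in which 2.89% of 27568 tested probe sets passed at an adjusted p under 0.05 and 2.75% passed as lower. In tartrazine sod-1 was 0.90 log2 lower than in water (-0.90 ± 0.16), which missed the threshold (limma adjusted p = 0.0576). The Ponceau Red call held in 4 of 14 alternatives and the sign in all of them, with adjusted p from 0.0151 to 0.327. The call did not hold without either water array, where the difference was -1.08 and -1.12 log2. It was lost on the 4 Ponceau Red and water arrays alone (limma adjusted p = 0.134). Dropping either tartrazine array repeats that fit, so the 14 alternatives are not all distinct. It was also lost after subtraction of each array's median (-0.88 log2, limma adjusted p = 0.0808).

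The other cytosolic gene, sod-5, which codes for a minor enzyme known to be raised in dauer larvae, read 2.49 log2 in Ponceau Red array 2 and 3.79 in array 3. It read 2.12 and 2.09 in tartrazine and 2.12 and 2.12 in water. Tartrazine and water arrays read below their array medians and differed by hundredths of a log2 unit, whereas Ponceau Red array 3 stood above every other array. The difference of Ponceau Red from water was 1.02 ± 0.44 log2 (limma adjusted p = 0.399), and both Ponceau Red arrays were above both water arrays. Since the water readings are below the array medians, this size may be a lower bound.

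For sod-4, the extracellular and membrane-bound form, the readings were 4.70 and 6.68 log2 in Ponceau Red, 4.65 and 4.72 in tartrazine, and 5.0003 and 5.3587 in water. Ponceau Red array 3 was 1.499 log2 above the water mean, and the other 3 colorant arrays were 0.45 to 0.53 log2 below it. Neither colorant differed from water by more than the spread of the fit (0.51 ± 0.66 log2 in Ponceau Red, limma adjusted p = 0.759, and -0.49 ± 0.66 in tartrazine, limma adjusted p = 0.673).

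**Figure D1:**
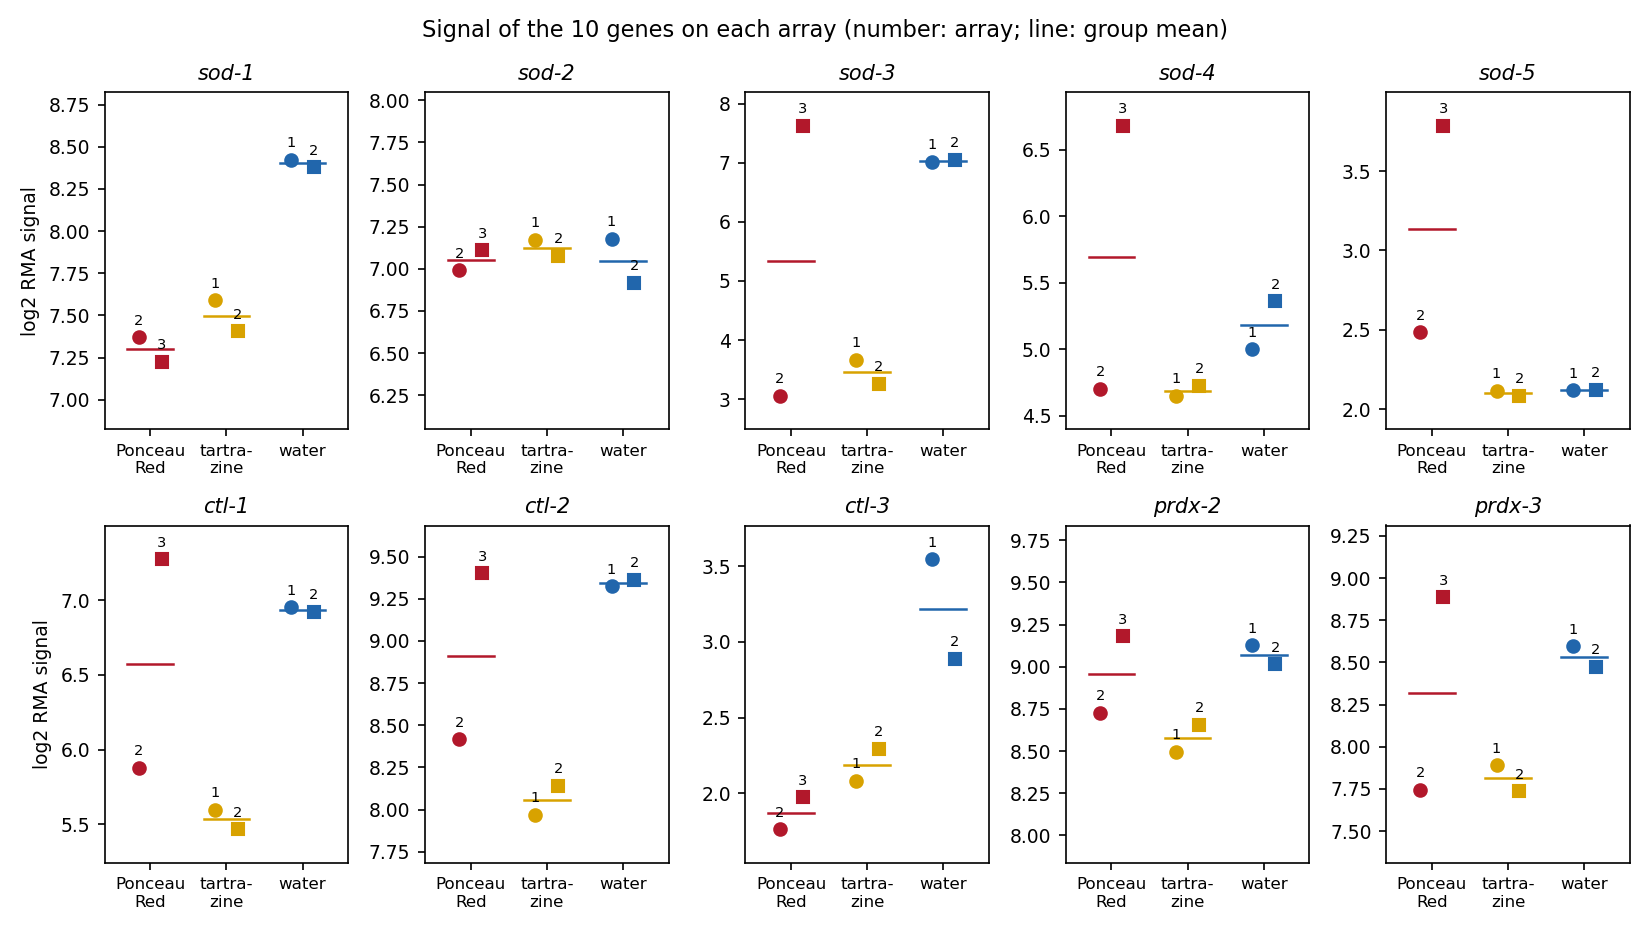
Log2 RMA signal (vertical axis) of each of the 10 genes on the 6 arrays, by group (horizontal axis), with the array number above each point and a line at each group mean; every panel spans at least 2 log2 units and has its own range. The sod-1 and ctl-3 points of all 4 colorant arrays lie below water, sod-2 is level, and for sod-3, sod-4, ctl-1, ctl-2, prdx-2 and prdx-3 Ponceau Red array 3 stands above water and the other 3 colorant arrays below it.

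The mitochondrial pair behaved differently from each other. The gene of the main matrix enzyme, sod-2, read 6.99 and 7.11 log2 in Ponceau Red, 7.17 and 7.08 in tartrazine, and 7.18 and 6.92 in water. Every colorant reading lay between the water readings. Its differences from water were 0.0019 ± 0.17 log2 in Ponceau Red and 0.075 ± 0.17 in tartrazine, with 95% intervals of -0.45 to 0.45 and -0.38 to 0.53, so changes of more than 0.53 log2 in either direction lie outside both intervals. The sign of these differences varied with the processing.

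The inducible matrix enzyme gene sod-3 had the widest range of the 10 genes. It read 3.06 log2 in Ponceau Red array 2 and 7.63 in array 3, 3.67 and 3.26 in tartrazine, and 7.02 and 7.05 in water. Ponceau Red array 2 and both tartrazine arrays formed a low set, more than 3 log2 below water, while Ponceau Red array 3 was slightly above water. The Ponceau Red arrays lay 23.7-fold apart, against 0.41 log2 between the tartrazine arrays and 0.027 between the water arrays. The difference of tartrazine from water was -3.57 ± 1.49 log2 (11.9-fold) and missed the threshold in the fit on 6 arrays (limma adjusted p = 0.198), in which the spread between the Ponceau Red arrays enters the error. Over the 4 tartrazine and water arrays alone the same difference passed (± 0.20 log2, limma adjusted p = 8.17e-05), as 19% of all probe sets did as lower. The mean difference of Ponceau Red from water, -1.69 ± 1.49 log2 (limma adjusted p = 0.651), describes neither Ponceau Red array.

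The 3 catalase genes are consecutive protein-coding genes on chromosome II in the RefSeq annotation of assembly WBcel235, in the order ctl-2, ctl-1, ctl-3. They are close copies of one another, so the signal of 1 probe set may include transcripts of another, although none of the 3 is marked for cross-hybridisation in the deposited table. For ctl-2, the peroxisomal catalase, the readings were 8.42 and 9.40 log2 in Ponceau Red, 7.97 and 8.14 in tartrazine, and 9.32 and 9.36 in water. For ctl-1, the cytosolic catalase, they were 5.88 and 7.27 in Ponceau Red, 5.60 and 5.47 in tartrazine, and 6.95 and 6.92 in water. Both genes were low in Ponceau Red array 2 and both tartrazine arrays, and above both water arrays in Ponceau Red array 3. In tartrazine ctl-1 differed from water by -1.40 ± 0.48 log2 and ctl-2 by -1.29 ± 0.35, and neither passed on 6 arrays (limma adjusted p = 0.147 and 0.113). Both passed over the 4 tartrazine and water arrays (limma adjusted p = 0.00123 and 0.00187), as 19% of all probe sets did as lower.

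The third catalase gene, ctl-3, known to be expressed in pharyngeal muscle, followed another course. It read 1.76 and 1.97 log2 in Ponceau Red, 2.08 and 2.29 in tartrazine, and 3.55 and 2.89 in water, so that all 4 colorant arrays were below both water arrays. Both Ponceau Red arrays and 1 tartrazine array were below their array median, so the size of the difference may be a lower bound. The difference from water was -1.35 ± 0.27 log2 in Ponceau Red (limma adjusted p = 0.1) and -1.03 ± 0.27 in tartrazine (limma adjusted p = 0.109). Pharynx markers moved with it in part: of myo-1, myo-2 and pha-4, the myosin genes myo-1 and myo-2 fell in Ponceau Red (limma adjusted p = 0.0306 and 0.0452) and myo-1 fell in tartrazine (limma adjusted p = 0.0435). The transcript of pha-4 read 3.84 and 7.64 log2 in Ponceau Red, 3.72 and 3.44 in tartrazine, and 6.18 and 6.56 in water. In Ponceau Red array 3 it was thus above water, unlike ctl-3. The summed signal of these markers was 36.9 and 218 in Ponceau Red, 40.4 and 39.3 in tartrazine, and 127 and 155 in water. In Ponceau Red array 3 most of that sum was pha-4. The part of these markers in the ctl-3 difference was not tested.

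Genes on either side of the catalases did not share one direction. On the ctl-2 side, Y54G11A.7 differed from water by -0.10 log2 in Ponceau Red and -0.21 in tartrazine. On the ctl-3 side, Y54G11A.14 was 0.91 and 1.74 log2 above water, with limma adjusted p = 0.324 and 0.0667. The flanking genes were picked by position alone.

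Of the peroxiredoxins, prdx-2, the main cytosolic enzyme, read 8.73 and 9.18 log2 in Ponceau Red, 8.50 and 8.66 in tartrazine, and 9.13 and 9.01 in water. The mitochondrial enzyme gene prdx-3 read 7.75 and 8.89 in Ponceau Red, 7.89 and 7.74 in tartrazine, and 8.60 and 8.47 in water. In both, Ponceau Red array 2 and the tartrazine arrays were low and Ponceau Red array 3 was the highest of the 6 arrays. The differences of tartrazine from water were -0.49 ± 0.21 log2 for prdx-2 (limma adjusted p = 0.21) and -0.72 ± 0.40 for prdx-3 (limma adjusted p = 0.303). Over the 4 tartrazine and water arrays prdx-3 passed (limma adjusted p = 0.0201), as 19% of all probe sets did as lower. The probe set of prdx-2 carries an accession that the RefSeq table used here does not list, and its name rests on the deposited symbol.

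**Figure D2:**
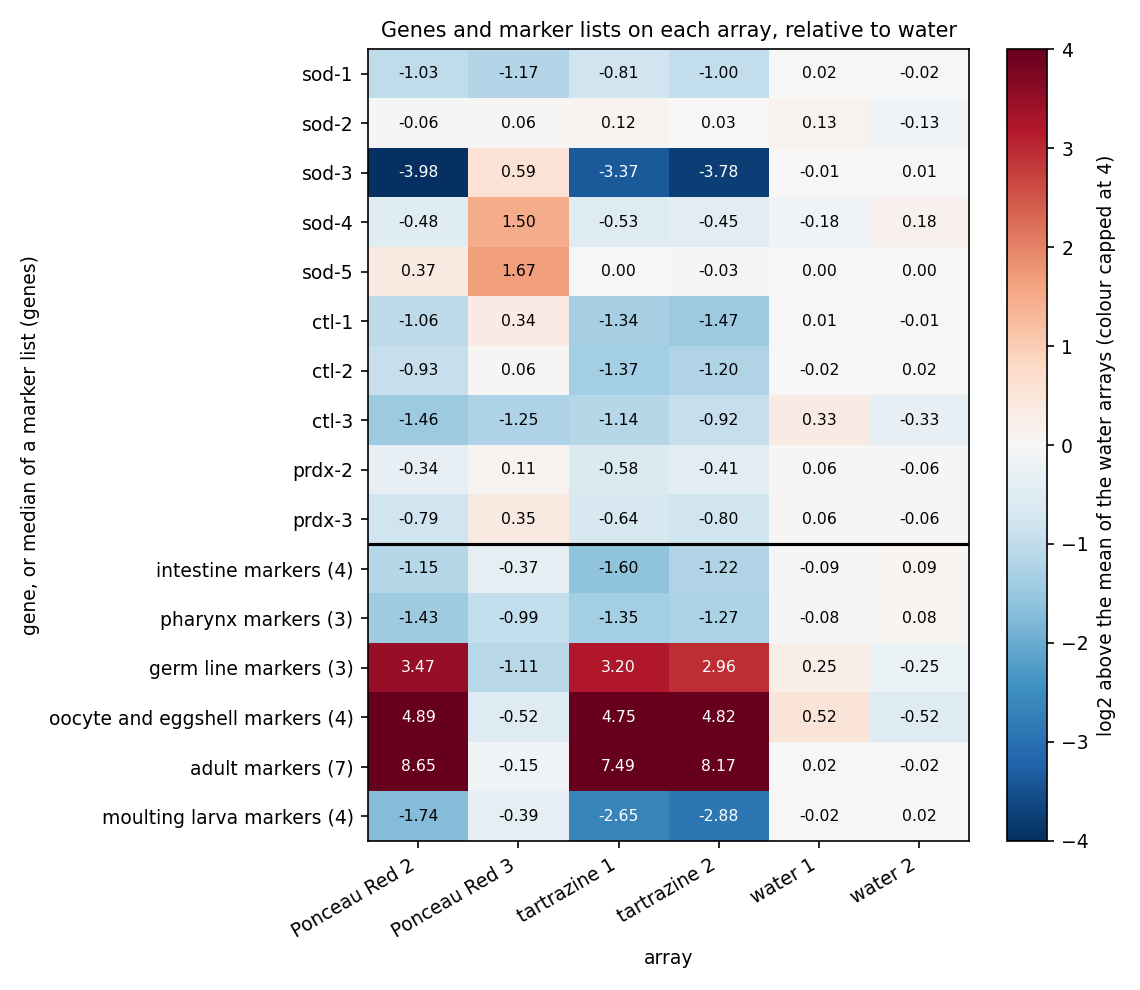
Log2 signal of each of the 10 genes on each array (columns) above the mean of the water arrays, over the medians of 6 marker lists with the number of genes in brackets; red is above water and blue below, and colours stop at 4 log2 while the printed values do not. The sod-3 row is low in Ponceau Red array 2 (-3.98) and both tartrazine arrays (-3.37 and -3.78), the arrays in which the adult marker row is high (8.65, 7.49 and 8.17), whereas the sod-1 row is low in all 4 colorant arrays.

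Set side by side, the 10 genes fell into few patterns. For 6 of them (sod-3, sod-4, ctl-1, ctl-2, prdx-2 and prdx-3), Ponceau Red array 2 and both tartrazine arrays were below both water arrays and Ponceau Red array 3 was above both. Of all tested probe sets 9.84% showed this pattern. All 4 colorant arrays were below both water arrays for 2 genes, sod-1 and ctl-3, and for 18.5% of all probe sets. None of the 10 was above both water arrays in all 4 colorant arrays, as 17.6% of all probe sets were. Ponceau Red array 3 was the highest of the 6 arrays for 7 of the 10 genes and for 25.5% of all probe sets. It was more than 1 log2 above array 2 for 5 genes (sod-3, sod-4, sod-5, ctl-1 and prdx-3) and for 11.6% of all probe sets, and more than 1 log2 below it for 0 genes and 12.3% of all. Correlations among genes over the 6 arrays, which share group and stage and are given only as a description, were 0.972 between sod-3 and ctl-1, 0.982 between sod-3 and prdx-3 and 0.917 between sod-1 and ctl-3. Between sod-1 and sod-3 the correlation was 0.498.

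The comparison of tartrazine with water asks which transcripts differ after this colorant. Of the 10 genes 9 had both tartrazine arrays below both water arrays, and sod-2 did not. Groups that did not overlap in this direction were common, at 34.3% of all probe sets, and the margin for sod-5 was within 0.01 log2. The median difference was -0.81 log2 over the 10 genes and 0.015 over all probe sets, on the deposited scale. Array medians were themselves 0.20 log2 lower in tartrazine than in water. On 6 arrays limma called 0 of the 10 genes and 4.38% of all probe sets, and before adjustment 4 genes and 28.6% of all were under 0.05. In the fit on the 4 tartrazine and water arrays 6 passed, all lower (sod-1, sod-3, ctl-1, ctl-2, ctl-3 and prdx-3), where 19% of all probe sets passed as lower and 16.1% as higher. Intestine markers, from the tissue in which several of these genes are known to be expressed, lay lower too: elt-2, ges-1, ifb-2 and vha-6 had a median of -1.41 log2 in tartrazine, 4 of 4 with no overlap with water and 0 of 4 past the threshold. Their summed signal was 668 and 1013 in Ponceau Red, 504 and 573 in tartrazine, and 1203 and 1380 in water. Between the Ponceau Red arrays vha-6 ran against that sum, at 8.53 log2 in array 2 and 7.71 in array 3, the lowest of the 6 arrays. The part of these markers was not tested.

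For Ponceau Red the same question, which of the 10 genes differ from water, had an answer that depended on the array. The median over the 10 genes was -0.29 log2 with both arrays, against 0.059 over all probe sets, while array medians were 0.22 log2 lower in Ponceau Red than in water. Both Ponceau Red arrays lay below both water arrays for 2 genes (sod-1 and ctl-3) and above them for 1 (sod-5), as 23.1% and 24.8% of all probe sets did. Relative to the water mean the median of the 10 genes was -0.86 in array 2 and 0.22 in array 3. With array 3 left out, 6 genes passed as lower (sod-1, sod-3, ctl-1, ctl-2, ctl-3 and prdx-3), where 13.1% of all probe sets did. With array 2 left out, sod-4 and sod-5 passed as higher (1.499 ± 0.24 and 1.67 ± 0.20 log2, limma adjusted p = 0.0139 and 0.00575), where 4.99% of all probe sets did, and sod-1 passed as lower, where 6.38% did. In these fits the lone Ponceau Red array is assumed to vary like the arrays of the other groups. In the fit on the 4 Ponceau Red and water arrays 0 of the 10 genes passed, and 0.461% of all probe sets did. Only sod-1 passed as lower with either Ponceau Red array left out, and ctl-3 was -1.25 ± 0.32 log2 without array 2, which did not pass.

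**Figure D3:**
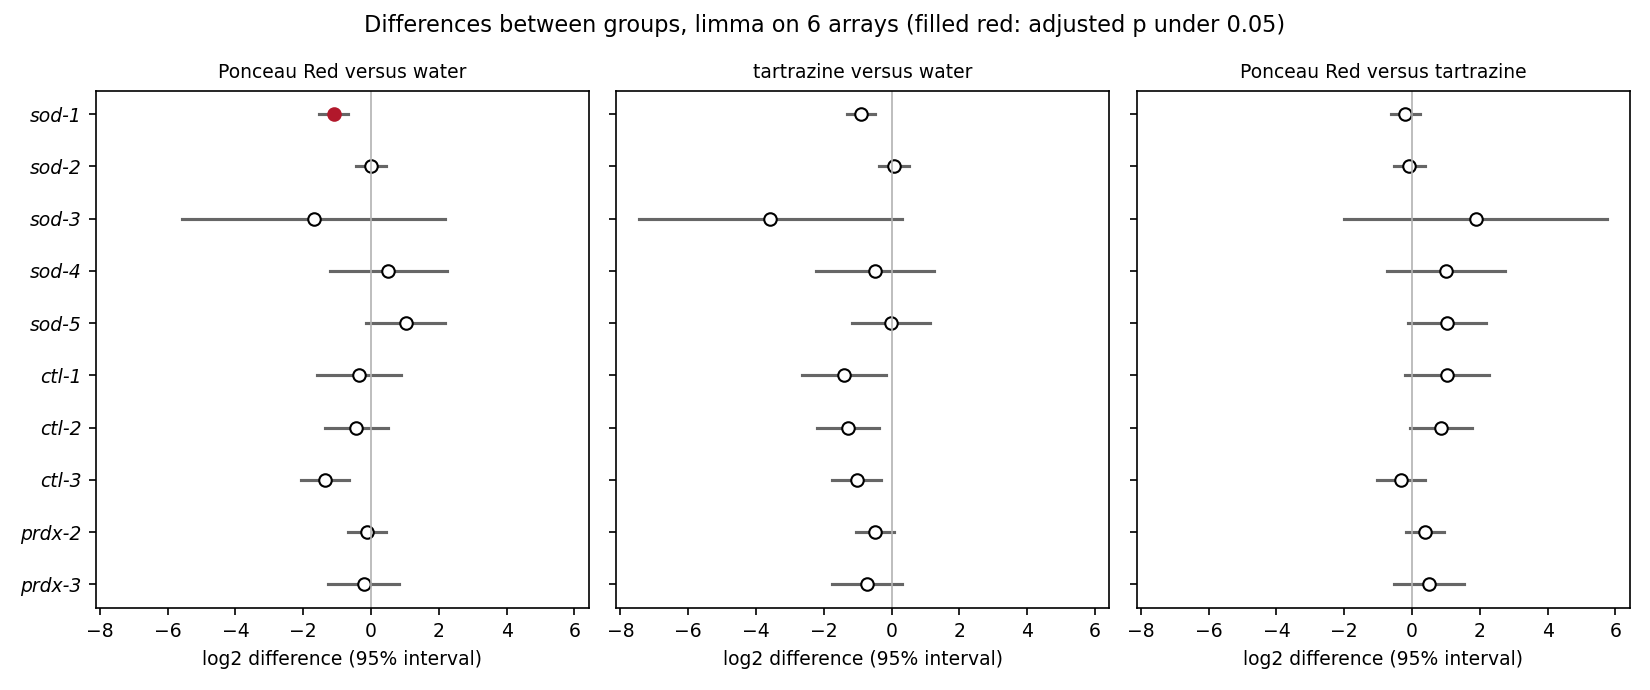
Log2 difference between group means (points) with 95% intervals from limma on 6 arrays (bars) for each of the 10 genes, in the 3 comparisons; a positive value is higher in the group named first. In the Ponceau Red comparison with water, sod-1 (-1.10) is the only filled point, and the interval of sod-3, from -5.57 to 2.19, is the widest.

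Ponceau Red and tartrazine, both given at 100 µM for 48 h, were compared directly as 1 pair. In limma 0 of 27568 probe sets passed (0%), and 1243 of them (4.51%) but none of the 10 genes were under 0.05 before adjustment. The Ponceau Red arrays were both above the tartrazine arrays for 4 genes and both below them for 2, as 18.7% and 16.8% of all probe sets were. The differences, Ponceau Red minus tartrazine, were 1.88 log2 for sod-3 (95% interval -1.997 to 5.76), 1.04 for ctl-1 (-0.20 to 2.28) and 0.85 for ctl-2 (-0.068 to 1.77). Those of sod-5 and sod-4 were 1.03 (-0.12 to 2.19) and 1.00 (-0.73 to 2.74). These intervals include differences of 1 log2 and more, so they do not show that the colorants act alike. The interval was narrower for sod-1, from -0.62 to 0.22 around -0.20 log2, and for sod-2, from -0.52 to 0.38 around -0.073. In the second deposited table the sod-1 difference was 0.30 log2, so its sign is not settled. With Ponceau Red array 2 left out, 6 genes (sod-3, sod-4, sod-5, ctl-1, ctl-2 and prdx-3) passed as higher in Ponceau Red, where 14.7% of all probe sets did. With array 3 left out, 0 passed.

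By a fixed rule, the 2 coding genes with the most similar course over the 6 arrays were found for each of the 8 genes whose arrays spanned more than 1 log2, as those of 45.9% of all probe sets did, out of 10323 candidates. With so few arrays many candidates are close: 256 correlated above 0.95 with sod-1, 755 with sod-3 and 1082 with ctl-2. The nearest to sod-1 were F34D6.1 and C55C3.4 (r = 0.998 and 0.997). The nearest to sod-3 were ech-1.2, named as an enoyl-CoA hydratase gene, and the C-type lectin gene clec-78 (both r = 0.999). For ctl-1 they were zip-2, a bZIP transcription factor gene of the response to infection, and Y25C1A.13 (both r = 0.999), and for ctl-2 the C-type lectin gene clec-60 and the kinase gene cmk-1 (both r = 0.999). For ctl-3 they were F49C5.9 and K12H6.5 (r = 0.996 and 0.99). The genes nearest to prdx-3 were kgb-1, a kinase gene of the JNK family, and the neuropeptide gene nlp-9 (r = 0.998 and 0.996). Those nearest to sod-4 were F19C6.2 and scrm-1 (both r = 0.999), and to sod-5 aex-2 and clc-19 (r = 0.996 and 0.995).

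Other genes of superoxide and peroxide metabolism were followed in 6 lists of 72 measured genes. None of the 72 passed against water on 6 arrays in either colorant. Before adjustment 10 (13.9%) were under 0.05 in Ponceau Red, against 14.9% of all probe sets, and 23 (31.9%) in tartrazine, against 28.6%. In the fit on the 4 tartrazine and water arrays 23 of the 72 (31.9%) passed as lower and 10 (13.9%) as higher, where 19% and 16.1% of all probe sets did. The 8 glutathione peroxidase genes had medians of -0.33 log2 in Ponceau Red and -0.37 in tartrazine, and gpx-5, with 4.01 and 6.38 in Ponceau Red, 3.86 and 4.25 in tartrazine, and 6.21 and 5.53 in water, split the Ponceau Red arrays as sod-3 did. The other gene named from this list, gpx-1, differed from water by -0.62 log2 in Ponceau Red and -0.48 in tartrazine.

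The 15 thioredoxin and glutaredoxin genes, among them those that supply electrons to peroxiredoxins, had medians near 0 (7.6e-05 and 0.036 log2) with members on both sides. The methionine sulfoxide reductase gene msra-1 read 7.52 and 8.93 in Ponceau Red, 7.56 and 7.78 in tartrazine, and 8.41 and 8.69 in water. The glutaredoxin gene glrx-22 ran against it, with 8.49 and 6.75 in Ponceau Red, 8.81 and 8.40 in tartrazine, and 7.53 and 7.70 in water. The third peroxiredoxin gene, prdx-6, was level, at 4.84 to 5.02 log2 on all 6 arrays.

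Glutathione and NADPH supply had a median of -0.26 log2 in Ponceau Red and -0.75 in tartrazine over 8 genes, of which 7 had both tartrazine arrays below both water arrays, as 34.3% of all probe sets did. The transaldolase gene tald-1 and the transketolase gene tkt-1, of the pentose phosphate pathway that makes NADPH, differed by -1.08 and -1.24 log2 in tartrazine (limma adjusted p = 0.137 and 0.0984). The 11 dual oxidase and haem peroxidase genes, whose products make or use hydrogen peroxide in cuticle and pharynx, had medians of -0.38 and -0.46. The tetraspanin gene tsp-15, which acts with the dual oxidase BLI-3, differed by -1.48 and -2.39 log2 (limma adjusted p = 0.282 and 0.0768), and skpo-3 by 0.25 and -0.43.

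Peroxisome genes (14) had a median of 0.028 log2 in Ponceau Red and -0.62 in tartrazine. The beta-oxidation genes maoc-1 and dhs-28 differed by -0.80 and -1.43 log2 in tartrazine (limma adjusted p = 0.337 and 0.186). The 16 regulators of the DAF-16 and SKN-1 pathways had medians of 0.098 and -0.10 log2. The intestinal regulator gene pqm-1 read 8.16 and 9.92 in Ponceau Red, 7.86 and 8.53 in tartrazine, and 9.01 and 9.21 in water, and aak-2, the AMP-activated kinase gene, differed by -0.22 and -0.82 log2. The gene daf-16 itself differed by -0.31 log2 in Ponceau Red and -0.55 in tartrazine and did not pass.

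**Figure D4:**
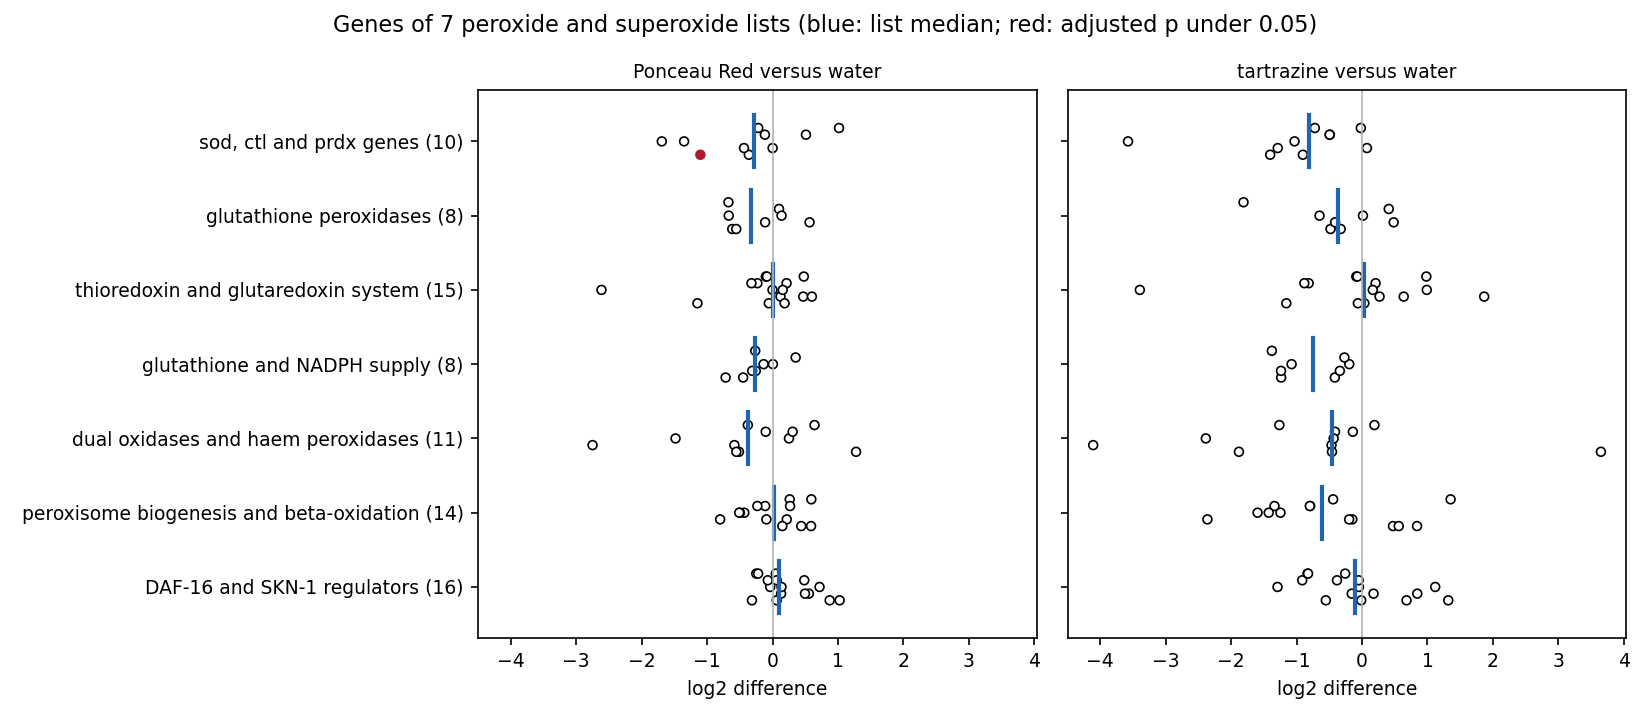
Log2 difference from water on 6 arrays (horizontal axis) of every measured gene in 7 lists (rows, with the number of genes), for Ponceau Red and tartrazine; blue bars are list medians and small vertical offsets separate points. The sod, ctl and prdx row has medians of -0.29 and -0.81, and sod-1 in Ponceau Red is the only gene of any list that passed.

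The authors' deposited table for Ponceau Red gives a ratio of 0.537 over control for sod-1, with an unadjusted p of 0.00791. Ratios in the authors' deposited table were 0.726 for sod-3, 1.71 for sod-4 and 1.80 for sod-5, with values between 1.01 and 1.03 for ctl-1, ctl-2, prdx-2 and prdx-3. The authors' deposited table for tartrazine, which lists 1746 probe sets, all with an unadjusted p under 0.05, holds sod-1 at a ratio of 0.569 (unadjusted p = 0.00578) and none of the other 9 genes. These tables do not rest on the same values as the arrays compared here. For sod-2 the error sum of squares in the authors' deposited table for Ponceau Red, 0.00429, is smaller than the 0.0414 within the groups of these 4 arrays. Such smaller sums were found for 34% of the probe sets compared in Ponceau Red and 25% in tartrazine. The authors' error sums belong to 3 degrees of freedom, and which arrays they cover is not given.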

How the data were processed

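Total RNA of whole worms (3.5 ng, per the labels' protocols) was hybridised to 6 Affymetrix arrays, 1 per sample and 2 per group. The values tested were log2 signals per transcript cluster, called probe sets here, that the authors made with RMA, per the submitters' processing notes. The sources used here give neither the version and options of RMA nor the genome build. The numbers in the column names do not match the labelled trials, so these columns were assigned by group only. The authors deposited the log2 signals a second time with a column for each labelled sample. That version, used as an alternative, was offset from the first by a median of 0.21 log2 in Ponceau Red, -0.06 in tartrazine and 0.21 in water. The authors' deposited tables of comparisons hold a linear ratio of colorant over control and a p-value per probe set, both unadjusted. They also hold F scores and sums of squares, which the authors computed in a way that these sources do not give. Question marks stand in place of 485 p-values in the one for Ponceau Red.

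Tests covered the 27568 of 29317 probe sets with a gene name, taken through a RefSeq table (WBcel235) by accession (24021) or symbol (3302), or from the deposited table alone (245). Tests were two-sided in limma 3.58.1 (R 4.3.3; lmFit and eBayes, degrees of freedom 3 residual plus 1.79 prior). The 3 contrasts were fitted to the 6 arrays together, with no block and no filter. The threshold was 0.05 after Benjamini-Hochberg adjustment over the 27568. The fitting script was tested on simulated data. A value after ± is the standard error of the fit, and intervals are at 95%. The median interval reached 0.65 log2 to either side, and the number of arrays limits the precision. Sample titles call the replicates of each group independent trials, but the labels do not say whether a trial was a separate culture. How far the spread among the 6 arrays is technical is therefore not known, and the p-values reflect no more than that spread. Pairing by trial was not established. With labelled trials matched, deviations correlated at 0.038 between Ponceau Red and water and 0.16 between tartrazine and water. Between Ponceau Red and tartrazine the correlation was -0.045. The values that include Ponceau Red cannot decide pairing, because its arrays differed in stage markers.

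The 10 genes and the lists were chosen with earlier results of these data known, and no list was tested as a set. All 10 genes are described. From each pathway list the 2 genes of highest mean signal are named, with any member that passed, and prdx-6 and daf-16 were added after their values were seen. The nearest genes by course are the 2 coding genes with the highest Pearson correlation over 6 arrays. Alternatives were the second table, with and without the trial as a block, centring each array on its median, the 4 arrays of a comparison alone, a filter on low signal, other sets of probe sets, an intensity trend in eBayes, and each array left out in turn.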

Additional observations from a re-analysis of the deposited data

How the results depend on the processing

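The limits come from the number of arrays. Leaving out 1 array of the group outside a comparison gives the same fit as the 4 arrays of that comparison alone. The alternatives are therefore not all distinct, and the counts below include the same calls more than once. Of 420 differences of the 10 genes under alternatives, 354 kept their sign and their side of the threshold, 34 passed newly, 10 passed no longer and 22 changed sign. The count of the 10 genes that passed in Ponceau Red against water, 1 in the fit reported, was 0 after centring each array, with the second table, with that table and the trial as a replicate block, on the 4 arrays alone, with the filter on low signal and with an intensity trend, and 0 to 6 with 1 array left out. In tartrazine against water, with 0 in the fit reported, it was 2 with the second table (sod-1 and ctl-2), 1 with that table and the replicate block (sod-1, limma adjusted p = 0.0472), 6 on the 4 arrays alone, and 0 to 6 with 1 array left out. Between Ponceau Red and tartrazine it was 0 to 6 with 1 array left out. The counts over all probe sets, 796 in Ponceau Red and 1208 in tartrazine against water, were 127 and 9690 on the 4 arrays of each comparison, 263 and 1197 with the replicate block, and 684 and 2801 with the second table. For Ponceau Red against water they were 3134 when Ponceau Red array 2 was dropped and 7205 when array 3 was, and 0 without either water array (2248 and 2812 before adjustment). For tartrazine against water they were 0 without either water array (3425 and 3967 before adjustment in limma) or either tartrazine array (4001 and 4586). Ponceau Red against tartrazine gave 7638 without Ponceau Red array 2.

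Sign changes were these, in log2. After centring, prdx-2 and prdx-3 were 0.10 and 0.0024 in Ponceau Red and sod-5 was 0.18 in tartrazine. In the second table, with and without the replicate block, sod-2 was -0.055 in Ponceau Red and -0.25 in tartrazine, and Ponceau Red minus tartrazine was 0.30 for sod-1 and 0.20 for sod-2. With 1 array left out, differences of Ponceau Red from water ran from -0.13 to 0.13 for sod-2, -3.98 to 0.59 for sod-3, -0.48 to 1.499 for sod-4, -1.06 to 0.34 for ctl-1, -0.93 to 0.056 for ctl-2, -0.34 to 0.11 for prdx-2 and -0.79 to 0.35 for prdx-3. Those of tartrazine from water ran from -0.055 to 0.21 for sod-2, and those of Ponceau Red from tartrazine from -0.40 to 4.17 for sod-3 and -0.068 to 1.07 for prdx-3. The cause was not tested.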

Other observations

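Beyond enzymes of superoxide and peroxide, marker genes of other tissues moved between the arrays. The body wall muscle markers summed to 1281 and 963 in Ponceau Red, 847 and 965 in tartrazine, and 1032 and 1016 in water. The water sums thus lay between those of the Ponceau Red arrays, and the sum of tartrazine array 1 was below every other. Most of each sum was unc-54, and the other genes of the list did not all follow it. The Ponceau Red order was reversed for myo-3 (5.47 log2 in array 2 and 6.54 in array 3). Both myo-3 and unc-15 were lowest in tartrazine array 2 (5.12 and 7.38 log2). Neuron markers summed to 227 and 395 in Ponceau Red, 212 and 260 in tartrazine, and 274 and 301 in water. Among them unc-119 ran against the sum, with 4.39 and 3.67 log2 in Ponceau Red, 5.30 and 4.33 in tartrazine, and 3.99 and 4.07 in water. Hypodermis markers summed to 307 and 551 in Ponceau Red, 306 and 302 in tartrazine, and 817 and 809 in water, and 1 of the 3, the collagen gene rol-6, passed as lower in both colorants. Germ line markers summed to 395 and 12.5 in Ponceau Red, 392 and 381 in tartrazine, and 28.3 and 19.3 in water. Sperm markers were low in every array, with sums of 15.8 and 13 in Ponceau Red, 39.1 and 29.6 in tartrazine, and 17.5 and 15 in water, and 1 of 4, spe-11, passed as higher in tartrazine.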
